A study of Mus musculus with 12 samples.

Results

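The listed integrin and laminin chains are 33 genes of the 24411 in the deposited count table, 23 encoding integrin chains and 10 encoding laminin chains, and they were taken by gene symbol. All 33 symbols were found. RNA was sequenced from primary colonic myofibroblasts, mesenchymal cells grown from the distal colon of 16-week-old C57BL/6 mice, cultured to passage 6 to 8 and collected 5 days after seeding in Matrigel. One group of 6 libraries came from TNFR1-/- mice (knockout 1 to 6) and the other of 6 from TNFR1+/- mice (control 1 to 6), so the controls also carry 1 mutant allele, and all cultures were untreated. TNFR1, encoded by Tnfrsf1a, is the receptor through which tumor necrosis factor acts on most cells.

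Integrins are cell surface receptors made of an alpha and a beta chain, and the pairing sets which matrix protein is bound. Laminins are trimers of an alpha, a beta and a gamma chain that assemble into the sheet of the basement membrane, on which epithelial cells rest and which mesenchymal cells help to build. Matrigel, the gel in which these cultures grew, is itself a laminin-rich basement membrane extract. Integrins link these proteins to actin through talin, kindlin and the adaptor protein ILK.

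Depth was 6543013 to 9937008 counts in the knockout libraries and 11890729 to 16458689 in the controls. The libraries fell into 4 sets of similar profiles, with knockout 1 to 4 apart from knockout 5 and 6, and control 1 to 5 apart from control 6. Within a set the rank correlation over genes was 0.989 to 0.998, and between sets of 1 genotype it was 0.927 to 0.955. No label ties a library to an animal or a culture, and p-values therefore reflect no more than the scatter among these 12 libraries, some of which may be technical. For this reason each chain is also compared set by set, which gives 4 contrasts. Tnfrsf1a was at 44.1 ± 2.32 CPM (counts scaled to library size, per 1e+06 counts; SD, n = 6) in the knockout and 74.7 ± 10.1 CPM (SD, n = 6) in the control, and no knockout library reached a control. Transcripts of the targeted gene thus remained in the knockout, and because the labels do not give the deleted part, these counts do not establish the genotype. Fibroblast markers (Col1a1, Col1a2, Col3a1, Pdgfra, Pdgfrb, Dcn, Vim and Acta2) were all detected, and summed to 10850 and 10920 CPM in knockout 6 and 5 and to 24040 to 33330 CPM in the other 10 libraries. The sum hides members that moved apart. In the test given below Vim and Acta2 rose, Col3a1, Pdgfra and Dcn fell and 3 did not pass, where 43.0% of all tested genes passed. The 10 epithelial markers summed to 14.9 to 22.6 CPM in the knockout, 7.28 to 9.06 CPM in control 1 to 5 and 19.9 CPM in control 6, mostly from keratins, with Epcam and Cdh1 at a mean of at most 0.0605 CPM in either group. The part of such cells in the chain differences was not tested.

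Of 18 tested integrin chains 7 passed as higher in the knockout, and of 7 tested laminin chains 0 did, beside 21.4% of all tested genes. The alpha chains of fibronectin and laminin receptors, Itga5 and Itga6, rose 3.57-fold and 3.59-fold, and Itgb1, the beta chain both can use, rose 1.76-fold. The laminin chains Lama1, Lama4 and Lamb2 fell 5.50-fold, 2.75-fold and 1.70-fold, and the leukocyte integrin chain Itgb2 fell 4.98-fold. These are fitted folds over all libraries, and not all were even across them. Itgb1 was lower in knockout 5 and 6 than in control 6. Lama1 was only 1.11-fold lower in knockout 1 to 4 than in control 6. In bulk RNA, fewer cells of a type and less RNA per cell cannot be told apart.

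Enough counts for a test were present for 25 of the 33 chains. By the edgeR quasi-likelihood test with Benjamini-Hochberg adjustment over all 12146 tested genes, 7 chains rose, 5 fell and 13 did not pass an adjusted p of 0.05. Of all tested genes 43.0% passed, 21.4% higher and 21.6% lower in the knockout. The 18 tested integrin chains gave 7 higher, 2 lower and 9 not past, with a median log2 difference of 0.31. Among the 7 tested laminin chains 0 rose, 3 fell and 4 did not pass, with a median of -0.11, against 0.02 over all tested genes. The groups did not overlap for 7 chains, of which 2 were higher and 5 lower in every knockout library. Over all tested genes that held for 23.0%, with 10.6% above and 12.5% below.

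**Figure D1:**
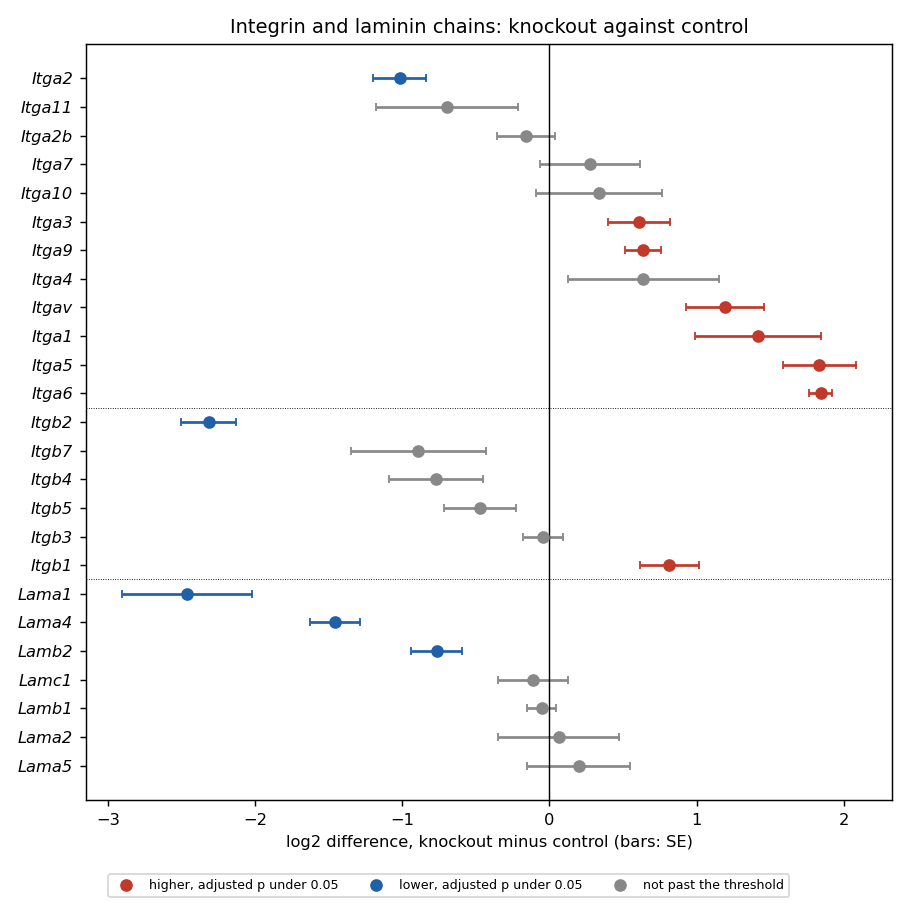
Fitted log2 difference, knockout minus control, of the 25 tested chains, with bars for the standard error; dotted lines separate integrin alpha, integrin beta and laminin chains. The 7 chains that rose are all among the 18 integrins, and 3 of the 5 that fell are among the 7 laminins. Of all tested genes 21.4% rose and 21.6% fell. In knockout 5 and 6 the called Itga1, Itga3, Itgav and Itgb1 were lower than in control 6.

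Which libraries entered changed these counts. Without knockout 5 and 6, 8 chains were higher and 7 lower, and with control 6 also removed 13 were higher and 7 lower. The calls over all genes grew as well. Of 12471 genes 3055 were higher and 3433 lower without knockout 5 and 6. Of 12382 genes 4319 were higher and 4508 lower with control 6 also removed. Only knockout 1 to 4 and control 1 to 5 remain there, where genotype cannot be told apart from the set. When each set was summed to 1 sample, leaving 2 against 2, no chain and no gene passed in edgeR. At an unadjusted p under 0.05 that fit held 1047 of 13132 genes and 4 of 28 chains, Itga6, Itgb2, Lama1 and Lama4. DESeq2 on the same sums called 213 of 13815 genes and 3 of 28 chains, Itga6, Itgb2 and Lama4.

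Promoter windows from RefSeq, the 250 bases before a gene start (GRCm38.p6), were used for 21 of the 33 chains, 24 windows in all. The mouse build behind the counts is not given in the sources used here, so these coordinates are those of RefSeq. NF-kB and AP-1 are transcription factors that act downstream of TNFR1. The NF-kB consensus was found on either strand in 1 of the 24 windows (Lamb3) and in 7.25% of 32851 windows of all genes. The AP-1 motif TGANTCA was in 1 window (Itgax) and in 6.75% of all, and the GC box GGGCGG in 8 and in 32.7% of all. Shown here are Itga5, which rose the most of the chains with a window, and Lamb2, the laminin chain with a window that fell. Capitals mark GC boxes on either strand, of which Itga5 has 2, not overlapping another of these motifs, and Lamb2 has none.
Itga5, chr15:103366792-103367041, minus strand: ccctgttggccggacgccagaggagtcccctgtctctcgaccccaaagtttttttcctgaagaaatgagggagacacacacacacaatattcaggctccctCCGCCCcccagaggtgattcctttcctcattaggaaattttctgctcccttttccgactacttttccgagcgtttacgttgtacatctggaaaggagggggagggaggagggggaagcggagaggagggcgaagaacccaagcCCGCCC
Lamb2, chr9:108479612-108479861, plus strand: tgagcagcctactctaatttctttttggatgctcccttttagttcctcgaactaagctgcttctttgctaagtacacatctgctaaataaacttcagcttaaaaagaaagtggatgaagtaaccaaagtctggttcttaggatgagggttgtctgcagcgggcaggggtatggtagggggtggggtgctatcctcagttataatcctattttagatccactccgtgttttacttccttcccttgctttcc

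Among the collagen-binding alpha chains, Itga1, Itga2, Itga10 and Itga11, 1 rose, 1 fell and 2 did not pass. Itga1, which favours basement membrane collagen, was at 50.4, 46.2, 39.1 and 50.6 CPM in knockout 1 to 4 and at 11.4 and 9.93 CPM in knockout 5 and 6. Its controls were at 10.5, 10.2, 10.7, 11.6 and 8.89 CPM in control 1 to 5 and 25.6 CPM in control 6. The groups overlapped, because knockout 5 and 6 sat at the level of control 1 to 5 and below control 6. The test gave a log2 difference of 1.42 (SE 0.43; edgeR adjusted p = 0.0175), which ran from 2.18 to -1.26 over the set contrasts. It was lost under limma-voom (adjusted p = 0.0532) and with a replicate block (adjusted p = 0.081).

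Itga2, the collagen receptor chain also known from platelets and epithelium, was low throughout. It was read at 2.41, 2.31, 1.42, 2.34, 2.80 and 2.59 CPM in knockout 1 to 6 and at 4.61, 3.77, 5.58, 5.74, 4.98 and 3.75 CPM in control 1 to 6. Every knockout library was below every control, with a log2 difference of -1.02 (SE 0.18; edgeR adjusted p = 0.000711). Between sets it was 1.39-fold to 2.27-fold lower in the knockout.

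Itga11, a receptor for fibrillar collagen typical of fibroblasts, did not pass, with a log2 difference of -0.69 (SE 0.48; edgeR adjusted p = 0.262). Knockout 1 to 4 gave 119.7, 123, 85.3 and 115 CPM, close to the 101.2, 109.5, 106, 102 and 96.9 CPM of control 1 to 5. Knockout 5 and 6 were at 19.2 and 16.9 CPM, and control 6 was at 259.7 CPM. The lowest and the highest libraries of this gene thus lay 14.4-fold apart between knockout 5 and 6 and control 6 as summed sets. Itga10, a related chain best known from cartilage, was at 5.49 ± 2.43 CPM in the knockout and 4.30 ± 3.37 CPM in the control (SD, n = 6 each; edgeR adjusted p = 0.553). It passed without control 6, where it was at 11.1 CPM (log2 difference 0.89; edgeR adjusted p = 0.0302).

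Of the laminin-binding alpha chains Itga3, Itga6 and Itga7, 2 rose and 1 did not pass. Itga6 had the smallest adjusted p of all 25 chains. It was read at 103, 109, 97.5, 108 and 105 CPM in knockout 1 to 5, with knockout 6 inside that range (mean of the 6 103.8 ± 4.27 CPM, SD), and at 28.9, 26.4, 27.8, 29.4, 26.5 and 34.5 CPM in control 1 to 6. Both knockout sets were at one level, and control 6 was only slightly above the other controls. Its log2 difference was 1.84 (SE 0.08; edgeR adjusted p = 7.48e-08), with set contrasts of 1.57 to 1.91.

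Itga3, whose product binds laminins of the epithelial basement membrane, was at 48.5, 49.7, 46.0 and 45.03 CPM in knockout 1 to 4. In knockout 5 and 6 it was at 24.4 and 22.7 CPM. Control 1 to 5 were at 23.6, 27.5, 22.5, 22.8 and 22.8 CPM and control 6 at 35.3 CPM. Knockout 5 and 6 therefore overlapped the controls, and the log2 difference of 0.61 (SE 0.21; edgeR adjusted p = 0.0335) no longer passed when any one of knockout 1 to 4 or control 1 to 5 was left out (adjusted p = 0.0526 to 0.0704). Itga7, the laminin receptor chain of muscle, was at 13.8 ± 5.11 CPM in the knockout and 11.4 ± 6.68 CPM in the control (SD, n = 6 each; edgeR adjusted p = 0.537). Without control 6, which was at 24.9 CPM, Itga7 passed with a log2 difference of 0.67 (edgeR adjusted p = 0.0413).

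Of the alpha chains that recognise the RGD motif of fibronectin, vitronectin and latent TGF-beta, Itga5 and Itgav rose and Itga2b did not pass. Itga5, whose promoter window is shown above, encodes the partner of Itgb1 in the main fibronectin receptor. Knockout 1 to 6 gave 1211, 1221, 1181, 1224, 1363 and 1379 CPM. Control 1 to 5 were at 261, 302, 272, 269 and 294 CPM and control 6 at 728 CPM. All knockout libraries were above all controls, with control 6 between the groups. A log2 difference of 1.83 (SE 0.25; edgeR adjusted p = 0.000127) was fitted, and folds between sets were 1.66 to 4.92.

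Itgav, the shared alpha chain of the vitronectin receptors, was at 816, 847, 733 and 834 CPM in knockout 1 to 4 and at 414 and 391.9 CPM in knockout 5 and 6. In control 1 to 5 it was at 245, 238, 260.4, 249.9 and 242 CPM and in control 6 at 531 CPM. Control 6 was above knockout 5 and 6, so the groups overlapped. Its rise was 1.19 on the log2 scale (SE 0.26; edgeR adjusted p = 0.00322). Itga2b, the platelet fibrinogen receptor chain, was at 3.37 ± 0.903 and 3.75 ± 0.680 CPM (SD, n = 6 each; edgeR adjusted p = 0.541). The platelet markers Gp9 and Gp6 had 0 counts in every library, and the summed level of 6 platelet markers was 3.93 to 9.33 CPM in the knockout and 6.74 to 11.5 CPM in the control.

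Itga4 and Itga9 encode closely related alpha chains whose ligands include an alternatively spliced part of fibronectin and, for the latter, tenascin. Itga9 was at 28.6, 27.2, 21.0, 25.5, 27.2 and 27.9 CPM in knockout 1 to 6 and at 16.8, 14.9, 15.7, 15.1, 15.6 and 23.3 CPM in control 1 to 6. Knockout 3 lay below control 6, and the other knockout libraries lay above all controls. Itga9 rose by 0.63 on the log2 scale (SE 0.12; edgeR adjusted p = 0.00146), with 0.15 and 0.24 for the 2 knockout sets against control 6. Itga4 was at 3.64 to 7.35 CPM in the knockout, 1.59 to 2.28 CPM in control 1 to 5 and 13.4 CPM in control 6. Its log2 difference of 0.64 did not pass (SE 0.51; edgeR adjusted p = 0.332) but was 1.64 without control 6 (edgeR adjusted p = 2.38e-05).

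Itgb1 pairs with most of these alpha chains and had the highest level per kilobase of transcript of all 33 chains in both groups, a mean of 826 CPM per kilobase in the knockout and 469.8 in the control (n = 6 each). Knockout 1 to 4 gave 3719, 3691, 3479.9 and 3646 CPM, and knockout 5 and 6 gave 2219.9 and 2161 CPM. Control 1 to 5 gave 1598, 1602, 1598, 1599.5 and 1629 CPM and control 6 gave 2727 CPM. Control 6 exceeded knockout 5 and 6 and lay below knockout 1 to 4. The log2 difference was 0.81 (SE 0.20; edgeR adjusted p = 0.00583), with set contrasts from 1.18 to -0.32.

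The beta chains Itgb3 and Itgb5, which pair with Itgav, did not pass. Itgb5 was at 389, 391, 409.7 and 391 CPM in knockout 1 to 4, against 396, 411, 403, 390.5 and 409 CPM in control 1 to 5. In knockout 5 and 6 it was at 168 and 181 CPM, and in control 6 at 661 CPM. The first pair of sets differed by 0.03 on the log2 scale, and the test over all libraries did not pass (log2 difference -0.47, SE 0.24; edgeR adjusted p = 0.138). Itgb3 was at 16.3 ± 3.67 CPM in the knockout and 16.8 ± 1.21 CPM in the control (SD, n = 6 each; edgeR adjusted p = 0.827), and passed as lower without knockout 5 and 6 (-0.26; adjusted p = 0.0251). Itgb4, which pairs with Itga6 in the hemidesmosome of epithelial cells, was at 1.19 ± 0.537 and 2.02 ± 0.669 CPM (SD, n = 6 each; edgeR adjusted p = 0.0688), and passed as lower without knockout 1 (-0.99; adjusted p = 0.0299) and, with all libraries, when scaled by library totals alone (-0.83; adjusted p = 0.0431).

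Set side by side per kilobase of transcript, 6 ratios of an alpha to a beta chain were computed, of which 4 did not overlap between groups. They are only some of the pairs that the listed chains can form. Ratios of the other pairs were not computed, so this count does not speak for pairs in general. Itga5 stood at 28.3% to 29.5% of the Itgb1 level in knockout 1 to 4 and at 53.5% and 55.6% in knockout 5 and 6. In control 1 to 5 it stood at 14.2% to 16.4%, and in control 6 at 23.2%. Itgav stood at 83.3% to 115% of the Itgb5 level in the knockout and 27.0% to 37.4% in the control. Itga6 was at 2.45% to 4.17% of Itgb1 in the knockout and 1.12% to 1.63% in the control, while Itga11 went the other way, at 0.599% to 2.57% and 4.57% to 7.31%. The groups overlapped for Itgav over Itgb1, at 9.81% to 12.4% in the knockout and 8.02% to 10.5% in the control, and for Itga1 over Itgb1, at 0.16% to 0.482% and 0.19% to 0.326%. The ratios are a description, with no test, and the share of non-overlapping ratios among other genes was not computed.

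**Figure D2:**
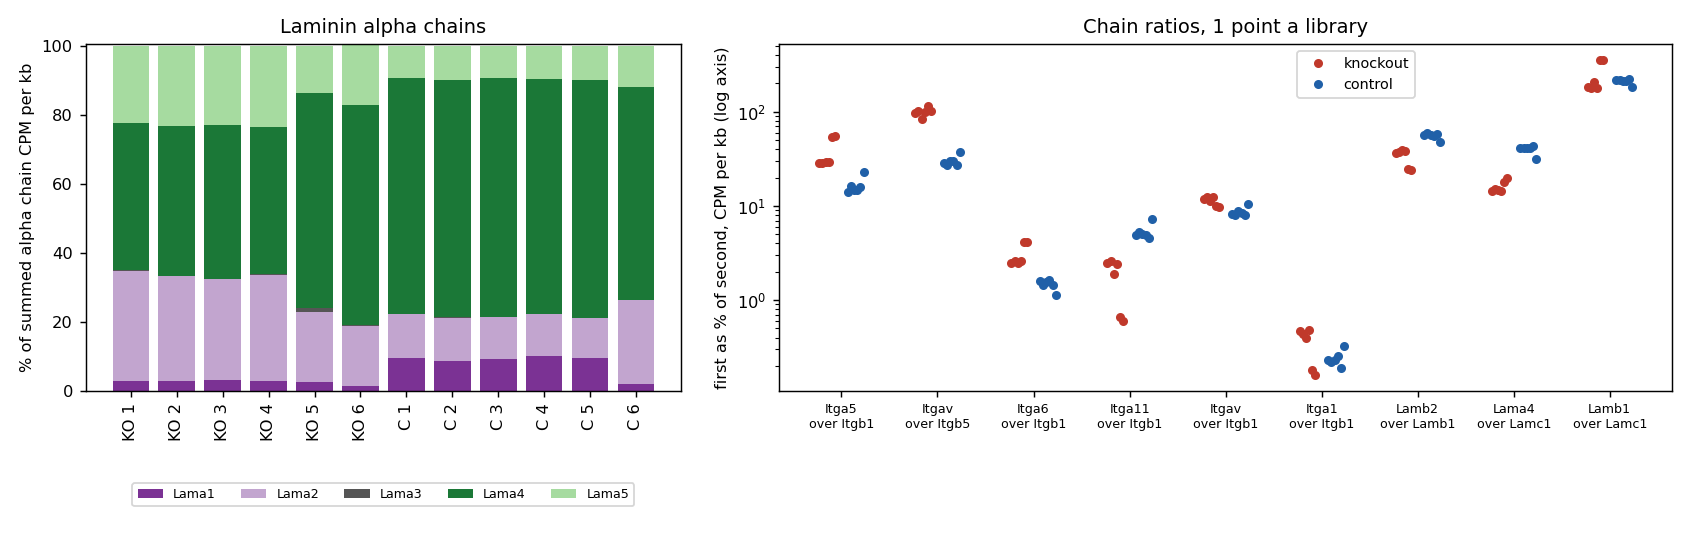
Left, each laminin alpha chain as a percentage of the summed alpha chain level (CPM per kilobase) in every library (KO, knockout; C, control); right, ratios of pairs of chains per kilobase on a log axis, 1 point a library. Lama4 makes up 42.5% to 44.6% of the alpha chain level in knockout 1 to 4 and 68.2% to 69.4% in control 1 to 5, and of the 9 ratios plotted the groups overlap for Itgav over Itgb1, Itga1 over Itgb1 and Lamb1 over Lamc1.

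Chains of leukocyte integrins were low, at under 10 CPM in every library. Itgb2, the common beta chain of leukocyte integrins, fell from 6.58, 9.71, 6.53, 7.35, 6.85 and 7.38 CPM in control 1 to 6 to 1.46, 1.92, 0.791, 1.597, 1.76 and 1.24 CPM in knockout 1 to 6. All knockout libraries were below all controls and the sets of each genotype were alike, with a log2 difference of -2.31 (SE 0.19; edgeR adjusted p = 5.14e-06) and folds between sets of 4.91 to 4.99. Its alpha partners among the listed chains, Itgal and Itgax, had at most 2 and 24 counts in any library and were not tested. Among 9 tested of 13 leukocyte markers, 6 fell, 0 rose and 3 missed the threshold, beside 21.6% of all tested genes that fell. The list summed to 39.8 to 61.6 CPM in the knockout and 83.1 to 134.6 CPM in the control. Ptprc, which marks all leukocytes, averaged 0.718 and 1.09 CPM, and the T cell genes Cd3e and Cd3g had 0 counts. The part of such cells in the Itgb2 difference was not tested.

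Itgb7, another leukocyte beta chain, did not split by genotype. It was at 0.837 to 2.34 CPM in knockout 1 to 4 and 2.35 CPM in control 6, while knockout 5 and 6 gave 6.64 and 7.14 CPM, close to the 6.12 to 8.33 CPM of control 1 to 5. The log2 difference of -0.89 did not pass (SE 0.46; edgeR adjusted p = 0.133), but passed without knockout 6 (-1.23; adjusted p = 0.0461) and without knockout 5 and 6 together (-1.89; adjusted p = 0.0022).

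**Figure D3:**
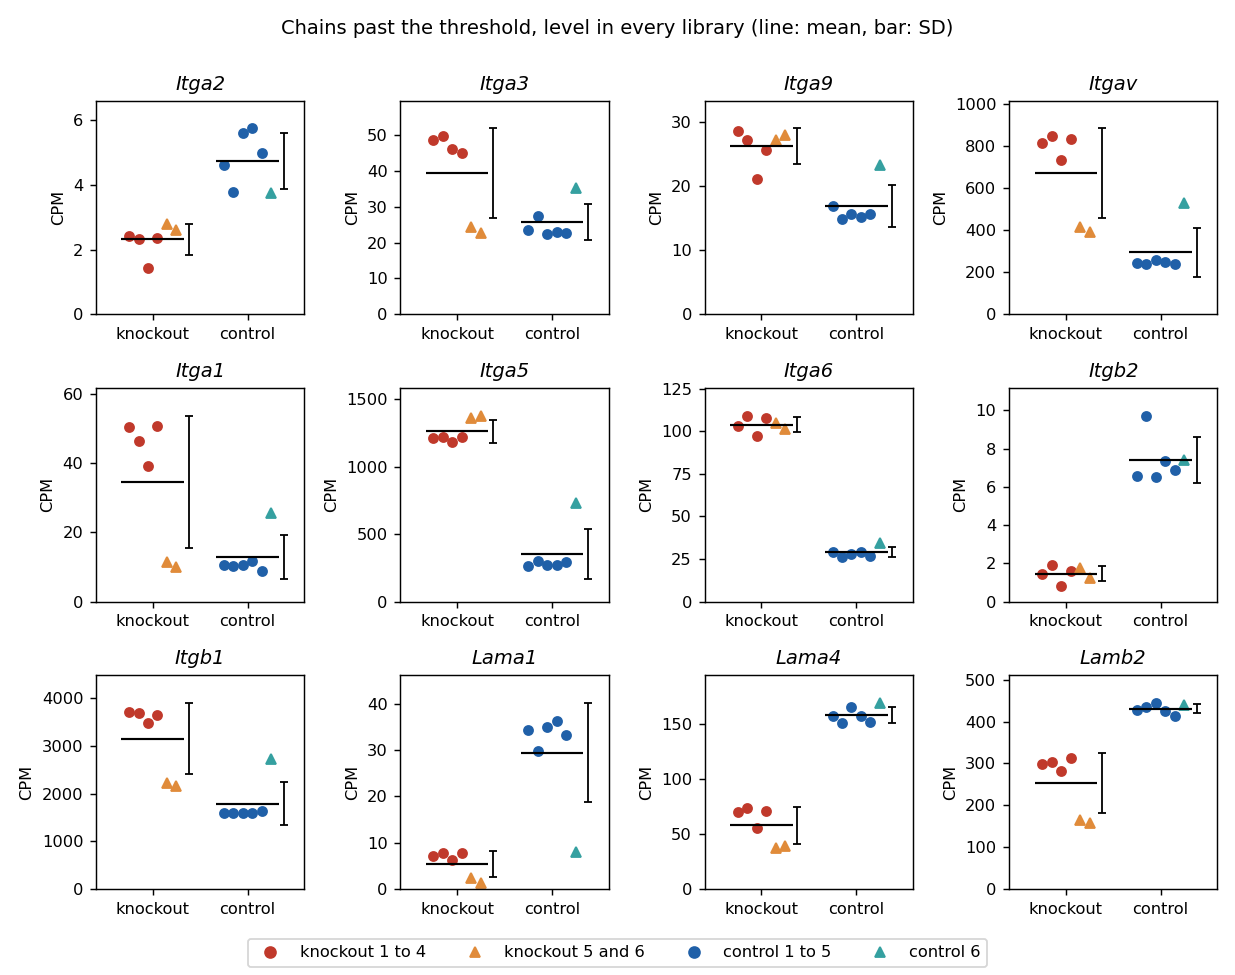
Level in CPM of each of the 12 chains past the threshold in every library, with the group mean (line) and SD (bar); triangles mark knockout 5 and 6 and control 6. Knockout and control do not overlap for Itga2, Itga5, Itga6, Itgb2, Lama1, Lama4 and Lamb2.

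Among the laminin alpha chains, Lama1 and Lama4 fell and Lama2 and Lama5 did not pass. Lama4 encodes the alpha chain typical of mesenchymal, vascular and muscle basement membranes. It was at 70.1, 73.4, 55.2 and 70.7 CPM in knockout 1 to 4 and at 36.7 and 39.2 CPM in knockout 5 and 6. Controls 1 to 6 were at 156, 150.5, 165, 157, 151 and 169 CPM, and the groups were far apart. Lama4 thus fell, with a log2 difference of -1.46 (SE 0.17; edgeR adjusted p = 4.98e-05), with a fold of at least 2.29 in each of the 4 set contrasts.

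Lama1, the alpha chain of the first-made embryonic laminin and of Matrigel, was at 7.11, 7.70, 6.17, 7.77, 2.28 and 1.24 CPM in knockout 1 to 6. It was at 34.3, 29.8, 35.02, 36.2 and 33.3 CPM in control 1 to 5 and at only 8.08 CPM in control 6. The groups did not overlap, yet control 6 was just above knockout 4. Lama1 fell with a log2 difference of -2.46 (SE 0.44; edgeR adjusted p = 0.000826), and the smallest fold between sets was 1.11 (knockout 1 to 4, control 6) and the largest 19.2 (knockout 5 and 6, control 1 to 5).

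Lama2, the alpha chain of muscle laminin, was at 83.9, 81.9, 57.6 and 81.2 CPM in knockout 1 to 4 and at 19.1 and 17.3 CPM in knockout 5 and 6. Control 1 to 5 were at 45.8, 44.1, 45.2, 44.7 and 40.1 CPM and control 6 at 106 CPM. The knockout sets thus lay on either side of control 1 to 5, and the log2 difference was 0.06 (SE 0.41; edgeR adjusted p = 0.916). Lama5, the main alpha chain of the adult gut epithelial basement membrane, also had knockout 5 and 6 lowest and control 1 to 5 between the knockout sets. It was at 69.7, 74.5, 53.6 and 73.7 CPM in knockout 1 to 4 but only 15.4 and 20.1 CPM in the other knockout set. Control 1 to 5 were at 40.1, 41.2, 41.8, 41.2 and 41.8 CPM and control 6 at 61.1 CPM (log2 difference 0.20, SE 0.35; edgeR adjusted p = 0.672). Without knockout 5 and 6, Lama5 passed as higher (0.61; edgeR adjusted p = 0.00337).

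Of the beta chains, Lamb2 fell and Lamb1 did not pass. Lamb2, the beta chain of synaptic, kidney and smooth muscle laminins, whose promoter window is also shown above, measured 299.5, 304, 282 and 313 CPM in knockout 1 to 4, with lower values of 165 and 158 CPM in the other knockout set. Controls 1 to 6 were at 427, 436, 444, 424, 413 and 439.6 CPM, all above every knockout library. The log2 difference was -0.77 (SE 0.17; edgeR adjusted p = 0.00368), with folds of 1.43 to 2.73 between sets.

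Lamb1, the more widely used beta chain, was among the steadiest members. It was at 849, 834, 747, 835, 692 and 682 CPM in knockout 1 to 6 and at 785, 749.5, 812, 785, 737 and 945 CPM in control 1 to 6. The groups overlapped, with a log2 difference of -0.05 (SE 0.10; edgeR adjusted p = 0.695). Per kilobase, Lamb2 stood at 36.3% to 38.8% of the Lamb1 level in knockout 1 to 4, 23.8% and 24.5% in knockout 5 and 6, and 47.8% to 59.8% in the controls.

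Lamc1 encodes the gamma chain of most laminin trimers. It was at 608, 613, 473 and 614 CPM in knockout 1 to 4, at 256 and 251 CPM in knockout 5 and 6, at 481, 459, 500.2, 482 and 437 CPM in control 1 to 5 and at 680.3 CPM in control 6. The sets of 1 genotype differed more than the genotypes, and the test did not pass (log2 difference -0.11, SE 0.24; edgeR adjusted p = 0.736). Lama4 stood at 14.5% to 19.7% of the Lamc1 level per kilobase in the knockout and at 31.3% to 43.7% in the control. Lamb1 stood at 179% to 357% of Lamc1 in the knockout and 183% to 222% in the control, with overlap.

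The make-up of the laminin alpha chains differed between sets. Per kilobase, Lama4 gave 42.5% to 44.6% of the summed alpha chain level in knockout 1 to 4, 62.3% and 63.6% in knockout 5 and 6, 68.2% to 69.4% in control 1 to 5 and 61.7% in control 6. Lama5 gave 13.8% to 23.5% in the knockout and 9.32% to 11.9% in the control, without overlap. In knockout 5 and 6 the Lama5 level itself was below every control, at 1.35 and 1.76 against 3.52 to 5.36 CPM per kilobase. Lama2 gave 29.2% to 32.0% in knockout 1 to 4 and 20.4% and 17.6% in knockout 5 and 6. It gave 11.5% to 12.6% in control 1 to 5 and 24.4% in control 6. Lama1 gave 8.63% to 9.97% in control 1 to 5 but 1.88% in control 6, within the 1.28% to 3.16% of the knockout.

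**Figure D4:**
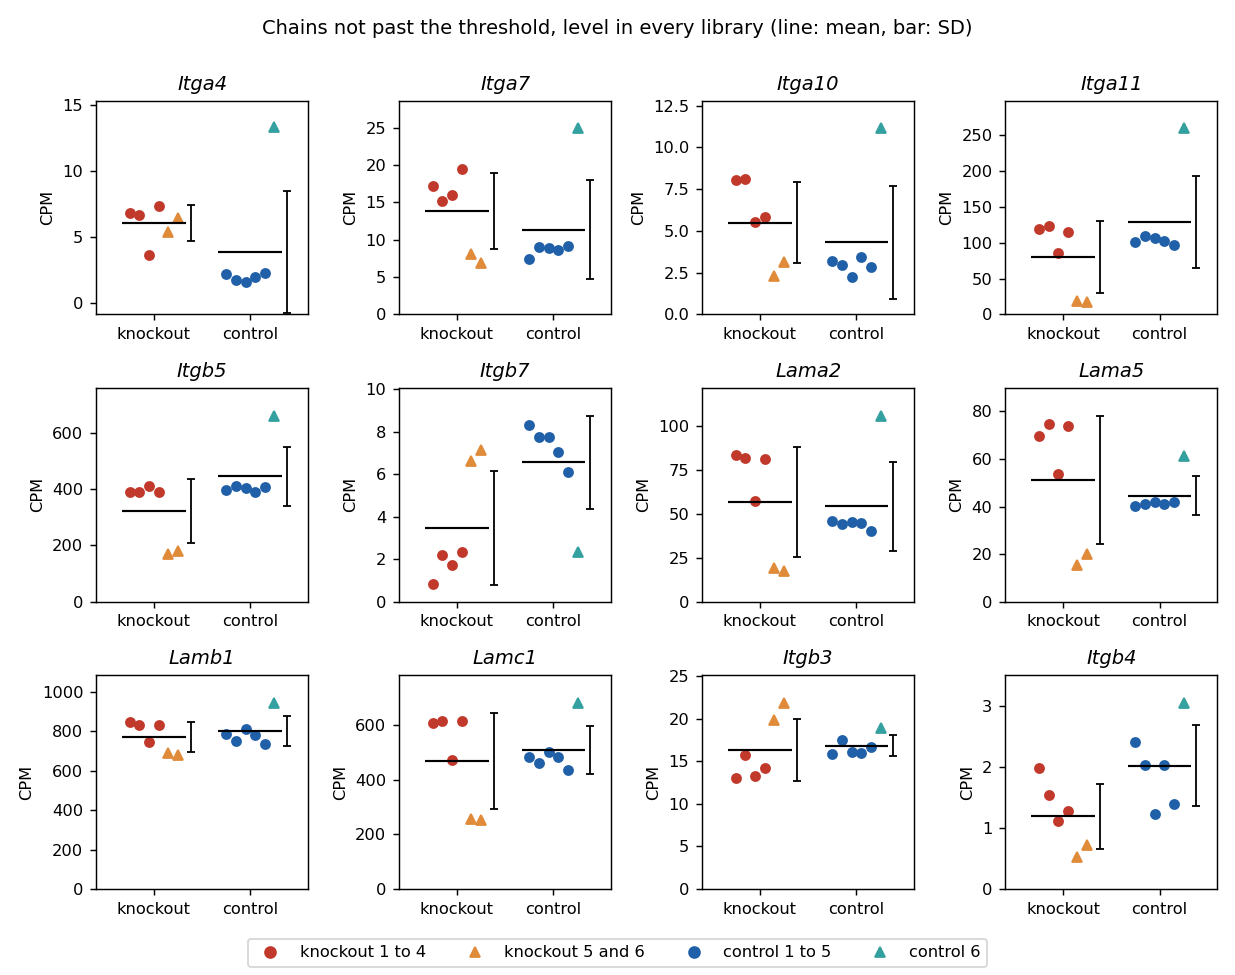
Level in CPM of 12 chains that did not pass the threshold in every library, with the group mean (line) and SD (bar, which can reach below 0); triangles mark knockout 5 and 6 and control 6. For Itga11, Itgb4, Itgb5, Lama2, Lamb1 and Lamc1 knockout 5 and 6 are the lowest libraries and control 6 is the highest.

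The other 8 chains had too few counts for the edgeR test. They are the integrin chains Itgae, Itgal, Itgax, Itgb6 and Itgb8 and the laminin chains Lama3, Lamb3 and Lamc3. Apart from Itgax they had at most 14 counts in any library. A count of 0 allows up to 3 counts, which is 0.182 to 0.459 CPM at these depths. Itgax passed as lower in DESeq2 (log2 difference -1.84; DESeq2 adjusted p = 0.0487), which keeps more genes in the test, but not in edgeR without a filter on low counts (-1.79; adjusted p = 0.0703). None of the other 7 passed in either of these tests or in any other alternative that tested them.

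Across the 4 set contrasts, the 25 tested chains split into 3 that were higher in all (Itga5, Itga6 and Itga9), 7 that were lower in all (Itga2, Itgb2, Itgb4, Itgb5, Lama1, Lama4 and Lamb2) and 15 of mixed sign. Of all tested genes with counts in every set, 21.3% were higher in all, 22.3% lower in all and 56.4% mixed. The median over the integrin chains was 0.86 where knockout 1 to 4 met control 1 to 5 and -0.43 where they met control 6. With knockout 5 and 6 the medians were -0.06 and -0.83. The laminin medians in the same order were 0.09, -0.22, -1.28 and -1.78.

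**Figure D5:**
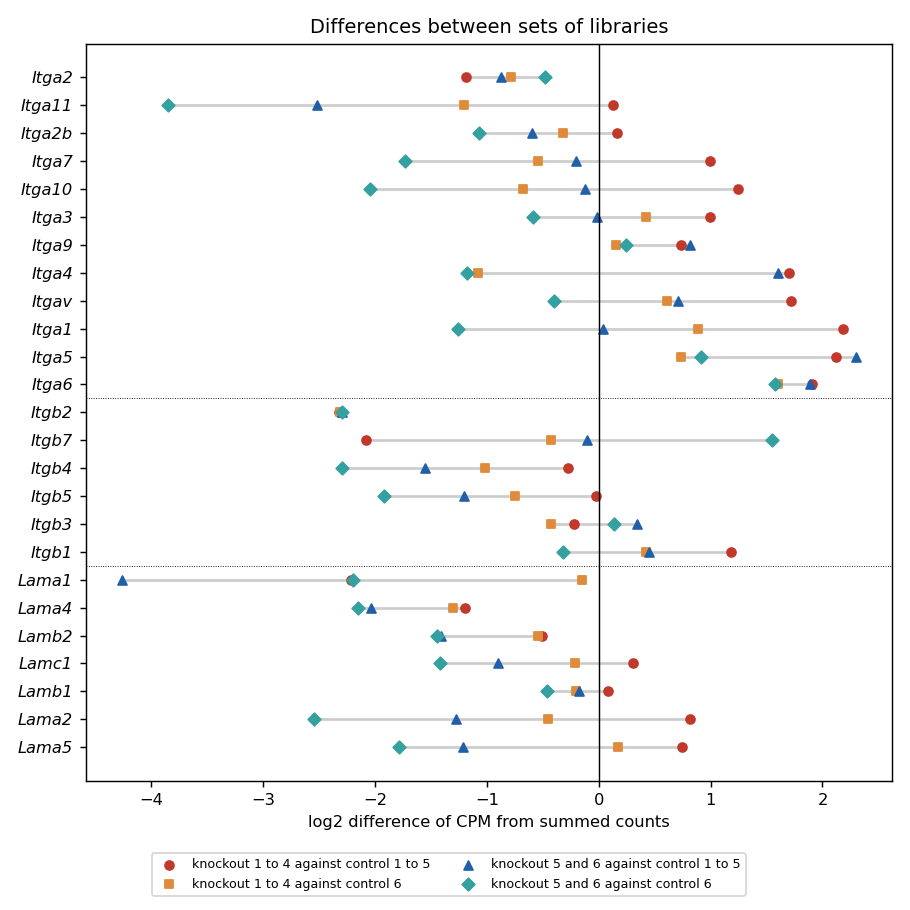
Log2 difference of CPM from summed counts for each tested chain in the 4 set contrasts; a grey line joins the lowest and the highest. The 4 values of Itgb2 nearly coincide, and those of Itga11 and Lama1 spread the most among the chains shown, reaching -3.85 and -4.26.

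The listed chains together took 0.755% to 0.821% of all counts in knockout 1 to 4, 0.573% and 0.559% in knockout 5 and 6, 0.480% to 0.497% in control 1 to 5 and 0.719% in control 6 (95% Wilson interval 0.715% to 0.723%, counting error only). The share of the ribosomal RNA precursor Rn45s moved with the sets, at 1.63% to 2.1% in knockout 1 to 4, 7.01% and 8.25% in knockout 5 and 6, and 0.351% to 1.19% in the controls. Smooth muscle markers also did, at a sum of 4465 to 5105 CPM in knockout 1 to 4. Knockout 5 and 6 summed to less, 3122 and 3071 CPM. Control 1 to 5 summed to 1304 to 1447 CPM and control 6 to 2677 CPM. Of the 6 markers 5 passed as higher and 0 as lower, beside 21.4% of all tested genes higher. Rn45s also passed as higher (edgeR adjusted p = 0.00337). Both the Rn45s share and the marker sum were higher in every knockout library than in every control. Their part in the chain differences was not tested.

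Of the genes that tie integrins to actin, more passed as higher than as lower in the knockout. Of the 22 adhesion adaptors with enough counts, out of 24, 15 rose and 2 fell while 5 missed the threshold, with a median log2 difference of 0.58. Of all tested genes 21.4% rose, and with the 4 summed sets no adaptor passed in edgeR. The kindlin gene Fermt2, whose product activates integrins from inside the cell, averaged 217 ± 59.5 CPM in the control and rose to 522 ± 43.1 CPM (SD, n = 6 per group; log2 1.26, edgeR adjusted p = 5.85e-05). The ILK partner Lims2 rose from 19.2 to 46.9 CPM and the gene of ILK itself, Ilk, from 189.7 to 335 CPM. In all 3 genes every knockout library was above every control. They were named for the smallest adjusted p in the list, a choice that favours groups without overlap. Every knockout library was above every control for 9 of the 22 adaptors and for 10.6% of all tested genes. The set medians of the list were 0.86, 0.22, 0.62 and -0.22, the last for knockout 5 and 6 against control 6. The 2 adaptors that fell were Fermt3, the kindlin of blood cells, at 1.09 against 1.96 CPM, and the tensin Tns2, at 52.2 against 114 CPM; both were named after their values were seen.

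Of 16 tested integrin ligands and basement membrane partners 3 rose, 3 fell and 10 did not pass, with a median of 0.44; the share called, 37.5%, was near the 43.0% of all tested genes. The number higher was 5 without knockout 5 or without knockout 6 and 7 without control 6. Osteopontin (Spp1), an RGD ligand, fell from 1773 ± 85.5 to 388 ± 157 CPM (SD, n = 6 each; edgeR adjusted p = 2.33e-05). Nephronectin (Npnt), a basement membrane RGD ligand, rose from 9.77 to 103 CPM. Its control 1 to 5 were at 5.05 to 7.40 CPM and control 6 was at 26.5 CPM. The laminin-binding proteoglycan Agrn fell from 204 to 65.1 CPM. Each of these 3 genes, also named for the smallest adjusted p in the list, had no overlap between groups. Of the 16, 1 was higher and 3 were lower in every knockout library, beside 10.6% and 12.5% of all tested genes. Integrin regulators at the membrane gave 3 higher, 4 lower and 8 not past of 15, with a median of 0.11, and 46.7% called was again near the share of all genes. Without control 6 the number higher was 7. Cd47, which associates with integrins, fell from 107 to 40.6 CPM, although control 6 at 44.3 CPM was within the knockout range. The caveolin Cav1 rose from 106 to 571 CPM, with control 1 to 5 at 64.7 to 73.2 CPM and control 6 at 291 CPM. Its set contrasts ran from 3.26 to 0.43, the last for knockout 5 and 6 against control 6. The small GTPase Rap1a, an integrin activator, rose from 57.2 to 81.4 CPM.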

How the data were processed

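Expected counts per gene symbol (estimated reads that need not be whole) were used as deposited; the submitters' processing notes name Bowtie2 2.1.0 and RSEM 1.2.15, with a human build beside mouse symbols. Not given in the sources used here are the mouse build, the annotation and the strand setting, so overlapping genes are uncertain. Libraries were strand-specific and selected with oligo-dT, per the labels' protocols. Counts were rounded, genes kept by filterByExpr (minimum count 10, total 15), TMM-scaled and tested with genotype as the only term by edgeR 4.0.16 (R 4.3.3), after a check on simulated counts. CPM use the scaled library sizes. Levels per kilobase divide CPM by the longest protein-coding transcript in GENCODE's basic set for GRCm38. Sets are sums of counts. Pairs of libraries within a set gave a chi-square of 1.38 to 9.83 per degree of freedom over genes with at least 20 counts, above counting noise. Between sets of 1 genotype it was 105 to 179. Libraries were kept apart in the test, but these values do not decide whether those of a set are separate cultures or technical repeats.

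The members, lists and alternatives (other scalings, filters and tests, a replicate block, libraries left out, summed sets, no Rn45s) were chosen with earlier results of these data known. Chains past the threshold or averaging at least 20 CPM were given by library, and up to 3 called genes a pathway list by smallest adjusted p. DESeq2 1.42.0 and limma 3.58.1 served as alternatives.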

Additional observations from a re-analysis of the deposited data

Results flagged for a closer look

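In groups of 6, a library was set apart where its gap to the next exceeded Dixon's 95% critical share of the group's range. Chance gives about 1 in 20 independent groups, and 19 of 50 were found. The chains share the same libraries, so these groups are not independent and the count cannot be weighed against that rate. The rule looks for 1 library apart, so it could not flag knockout 5 and 6 where they lay together. A knockout group without a flag is therefore not shown to be even. Control 6 was the library apart in 17 of the 25 tested chains, 15 times high and 2 times low. It was high for the alpha chains Itga1 (25.6 CPM), Itga10 (11.1), Itga11 (259.7), Itga4 (13.4), Itga5 (727.9), Itga6 (34.5), Itga7 (24.9), Itga9 (23.3) and Itgav (531.5). It was also high for the beta chains Itgb1 (2727 CPM) and Itgb5 (661.5) and the laminin chains Lama2 (106.1 CPM), Lama5 (61.1), Lamb1 (944.6) and Lamc1 (680.3). It was low for Itgb7 (2.35 CPM, the other controls at 6.12 to 8.33) and Lama1 (8.08 CPM, the other controls at 29.8 to 36.2). Control 2 was high for Itgb2 (9.71 CPM), and knockout 3, the library with the fewest counts, was low for Itga2 (1.42 CPM).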

How the results depend on the processing

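The 12 chains past the threshold kept their direction in all 276 refits, and 251 also kept the call. Most refits used single libraries from all 4 sets, so this tally does not measure how far the calls depend on the sets. Of the 25 lost calls, 12 came from summing sets and 13 from Itga1 and Itga3: Itga1 under limma-voom (adjusted p = 0.0532) and the replicate block (0.081), and Itga3 under those (0.059 and 0.106) and without any one of knockout 1 to 4 or control 1 to 5. Leaving out 1 library at a time gave 2148 to 3092 genes higher and 2270 to 2977 lower, 6 to 10 chains higher and 5 to 6 lower. Without control 6 alone, Itga4, Itga7 and Itga10 passed as higher. Leaving out knockout 5 and 6 gave 3055 genes higher and 3433 lower of 12471 tested, 4 integrins lower and 1 laminin higher. Leaving out control 6 as well gave 4319 genes higher and 4508 lower of 12382 tested, 13 chains higher, 4 integrins lower and 3 laminins higher. The 4 summed sets gave 0 calls in edgeR for genes, integrins and laminins alike, and only 2 sums a group enter. Scaling by library totals alone moved the all-gene calls to 2138 higher and 3004 lower.

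In these refits the signs that turned were those of chains not past the threshold, whereas between single sets (knockout 5 and 6 against control 6) the called chains Itga1, Itga3, Itgav and Itgb1 turned to -1.26, -0.59, -0.40 and -0.32. With 1 library left out, Itgb3 ran from -0.1406 to 0.0187, Lama2 from -0.0805 to 0.3696, Lamb1 from -0.0795 to 0.0007 and Lamc1 from -0.2001 to 0.0189. Under limma-voom Lama2 was -0.14 and Lama5 -0.0496, and with the replicate block Lama2 was -0.0329. Without knockout 5 and 6, Itga2b was 0.055, Lamb1 0.0254 and Lamc1 0.19; without control 6 too, Itga2b was 0.16, Itga11 0.11, Lamb1 0.0802 and Lamc1 0.29. In the summed sets Itga4 was -0.29, Itga7 -0.42, Itga10 -0.51, Lama2 -0.64 and Lama5 -0.23. The cause was not tested. The replicate block gave 1867 genes higher and 2107 lower, with 5 chains each way. Deviations from the group mean correlated at -0.38 to 0.218 between libraries of the same number. Those deviations also hold the differences between sets of 1 genotype, so this check could not decide whether such libraries are paired. DESeq2 gave no adjusted p for Itga4.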
